A study of Mus musculus with 2 samples.

Results

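The genes described here are the matrix metalloproteinases (MMPs), the ADAM and ADAMTS proteases, the ADAMTS-like proteins and the inhibitors Timp1 to Timp4 and Reck, in astrocytes cultured from the dentate gyrus (DG) of adult mice. They were taken by symbol, as every gene of the joined WT and β-arr1 KO tables whose name starts with Mmp, Adam, Adamts or Adamtsl and a number, or is Timp1 to Timp4 or Reck. This gave 64 of the 16302 genes in the tables, out of 84 annotated genes whose symbols match, and the other annotated genes were not analysed here. DG astrocytes are niche cells of adult hippocampal neurogenesis, and the series compared those of WT mice with those of β-arr1 KO mice, which lack β-arrestin 1, a scaffold of G protein-coupled receptor signalling. Both genotypes were labelled as the C57BL/6 strain, and the study describes the background of its KO mice as C57BL/6J. No further agent or allele is given for either genotype, and 1 library of pooled cDNA was sequenced per genotype. In both groups the cells had been grown on a Matrigel coating in medium with serum and shaken to remove loosely attached cells.

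Levels are in FPKM (fragments per kilobase of transcript and M mapped fragments), a unit that allows for the length of a transcript and the depth of a library. As each genotype has 1 library, there is no replicate error, no test of genotype was possible and no p-value was computed. A 95% interval beside a ratio covers the counting of fragments alone and says nothing about mice or cultures. Total FPKM was 374406 for WT and 373279 for KO, with about 9.38 M and 9.52 M mapped fragments. Arrb1, which encodes β-arrestin 1, was 7.62 FPKM in WT against 2.72 FPKM in KO, and which part of the gene is missing is not given in the sources used here. All 8 astrocyte markers were listed in both libraries, with Gfap at 189 FPKM and 192 FPKM. Markers of other cells were listed as well, and the fibroblast and mural list summed to 525 FPKM in WT against 276 FPKM in KO.

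Matrix metalloproteinases and their relatives are zinc proteases that cut collagens, proteoglycans and membrane proteins outside the cell. They are made as inactive precursors whose prodomain must be cut or displaced, and TIMP proteins block the active site once it is open. MMPs act mainly on the matrix, ADAMs release the outer parts of membrane proteins such as Notch and TNF-α, and ADAMTS proteases cut proteoglycans and trim procollagens. In the brain they remodel the perineuronal and perivascular matrix.

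What makes these proteins proteases is the zinc-binding site, whose histidines hold the catalytic zinc. It was searched in the coding sequences of the NCBIM37 annotation as the codons for His-Glu-x-x-His-x-x-Gly-x-x-His, with Asn allowed in place of Gly. It was found in 45 of the 64 genes, comprising 17 of 17 MMPs, 12 of 20 ADAMs, 16 of 17 ADAMTS genes, 0 of 5 ADAMTS-like genes and 0 of 5 inhibitors. The sites of 10 proteases of the 3 families that the results below describe at length are shown. Capitals mark the codons for His, Glu, Gly or Asn that the search required, lower case marks the free positions, and each site is 33 bases long.
Mmp2: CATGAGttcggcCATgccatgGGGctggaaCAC
Mmp14: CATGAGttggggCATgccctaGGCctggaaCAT
Mmp3: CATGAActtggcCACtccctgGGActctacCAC
Mmp10: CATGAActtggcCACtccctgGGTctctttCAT
Adam8: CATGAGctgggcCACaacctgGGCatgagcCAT
Adam10: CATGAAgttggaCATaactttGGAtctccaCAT
Adam17: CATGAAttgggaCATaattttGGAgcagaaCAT
Adamts1: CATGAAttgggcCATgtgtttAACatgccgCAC
Adamts4: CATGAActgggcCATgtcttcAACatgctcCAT
Adamts5: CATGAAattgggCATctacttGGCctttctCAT

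These sites lie at chr8:95363178-95363210 (+) for Mmp2, chr14:55056464-55056496 (+) for Mmp14, chr9:7449775-7449807 (+) for Mmp3, chr9:7504858-7504890 (+) for Mmp10, chr7:147173792-147173824 (−) for Adam8 and chr12:21342593-21342625 (−) for Adam17, each in a coding exon. Those of Adam10, Adamts1, Adamts4 and Adamts5 are split between exons, on chromosomes 9, 16, 1 and 16. Mmp3 and Mmp10 shared 29 of the 33 bases, Mmp2 and Mmp14 27, Adamts1 and Adamts4 27, Adam10 and Adam17 26, and Adamts1 and Adamts5 20. Likeness over so short a site did not follow the families throughout, since Adamts5 shared 23 bases with Mmp10, and Adam8 shared 19 with Adam10 and with Adam17 but 23 with Mmp14. Adamts1, Adamts4, Adamts9, Adamts15 and Adamts20 carried the Asn codon where the others had Gly, and Adamts8 matched neither form. Adam11, Adam22 and Adam23, ADAMs of neurons that serve as adhesion proteins, had no site. Genes with the site summed to 896 FPKM in WT against 761 FPKM in KO. Genes without it summed to 1609 FPKM and 1382 FPKM, of which the inhibitors held 1539 FPKM and 1303 FPKM.

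Of the 64 genes, 44 reached 1 FPKM in either library or both, and these are the genes compared. Inhibitors stood at the top, since Timp1, Timp2 and Timp3 were each at 335 FPKM or more in both libraries while no protease exceeded 138 FPKM. In all, 7 genes had a higher value of 100 FPKM or more, 15 had their higher value between 10 FPKM and 100 FPKM, and 22 between 1 FPKM and 10 FPKM. The 64 genes held 0.669% of the summed FPKM in WT and 0.574% in KO, and the TIMPs made up 61.2% and 60.6% of that part.

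**Figure D1:**
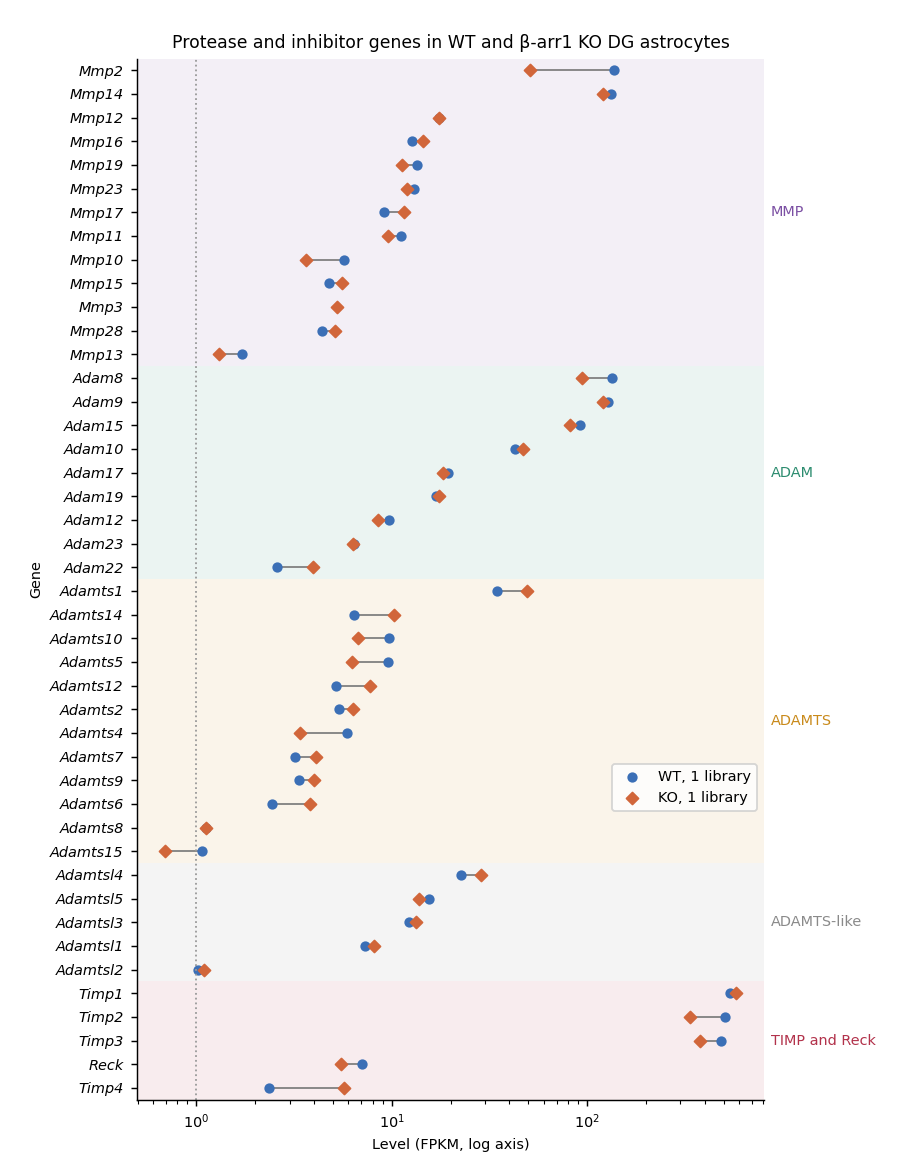
Level (FPKM, log axis) of each of the 44 genes compared, grouped by family, with 1 point for the WT library and 1 for the β-arr1 KO library, and a dotted line at 1 FPKM. Timp1, Timp2 and Timp3 lie farthest to the right and Mmp2 shows the widest gap among the genes above 100 FPKM; Mmp3 has a KO point alone, because the WT table lists no Mmp3.

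A ratio of β-arr1 KO vs. WT above 3/2 or below 2/3 was counted as past the limits, which are those of the study. Above 3/2 were 5 of the 44 genes, against 9.56% of all 12646 genes at 1 FPKM or more. They were Timp4, Adamts14, Adamts6, Adam22 and Mmp3. Below 2/3 were 6 of 44, against 8.28% of all genes, namely Mmp2, Mmp10, Adamts4, Adamts5, Adamts15 and Timp2. The shares of the set, 11.4% and 13.6%, were thus near those of all genes, and the counts by themselves do not set the set apart. The median log2 ratio was -0.0007 in the set and 0.02 over all genes. The counting interval left out a ratio of 1 in 29 of the 43 genes listed in both tables, against 40.5% of all genes, and 14 of these were higher and 15 lower in KO. Such an interval is narrow where a gene is highly expressed, so this count is not one of differences between genotypes.

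**Figure D2:**
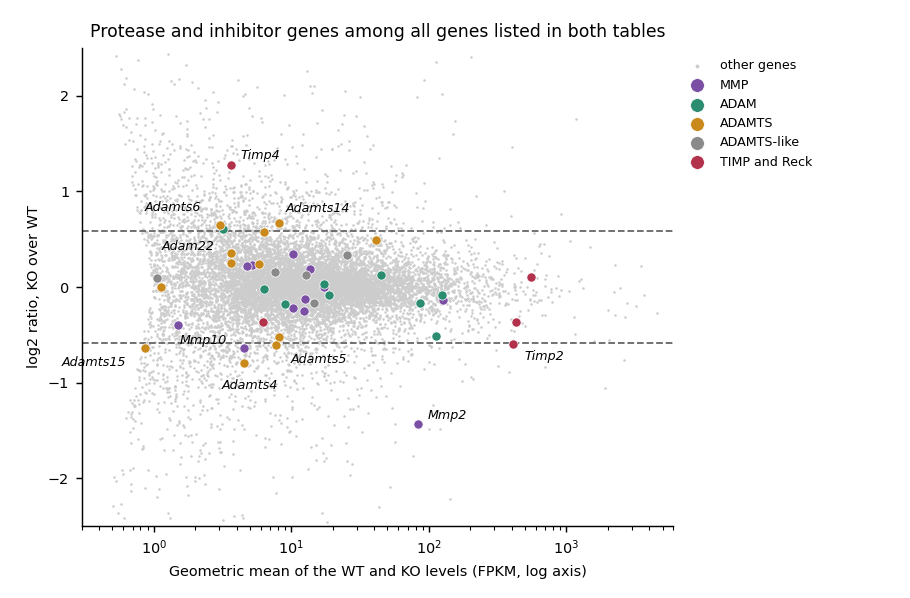
The log2 ratio of β-arr1 KO vs. WT against the geometric mean of both levels (FPKM, log axis) for all genes at 1 FPKM or more that both tables list, with 43 genes of the protease and inhibitor families in colour and dashed lines at ratios of 3/2 and 2/3. The coloured points spread on both sides of 0 within the cloud of other genes, and Mmp2 lies lowest among them; 78 other genes fall beyond the axis.

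Among the inhibitors, the levels went apart between family members. Timp1, an inhibitor of many secreted MMPs, was 537 FPKM in WT against 578 FPKM in KO, giving a ratio of 1.08 (95% interval 1.03 to 1.13). Timp2, which inhibits MMPs and also carries proMMP2 to MMP14 on the cell surface, was 505 FPKM and 335 FPKM, giving a ratio of 0.663 (0.648 to 0.680). Timp3, which is held in the matrix and also blocks ADAM17 and aggrecanases, was 488 FPKM and 379 FPKM, giving a ratio of 0.777 (0.761 to 0.793). The 3 abundant inhibitors were thus at like levels in WT, whereas in KO Timp1 stood above Timp3 and Timp3 above Timp2, with Timp1 over Timp2 at 1.06 in WT and 1.72 in KO. Timp2 lay just past the lower limit. Timp4 was far lower, at 2.36 FPKM in WT against 5.72 FPKM in KO, on about 27 and 69 fragments. Its ratio of 2.43 (1.53 to 3.94) was the highest among genes of the set at 1 FPKM or more listed in both tables. Reck, a membrane-anchored inhibitor, was 7.04 FPKM and 5.48 FPKM, giving a ratio of 0.778 (0.651 to 0.929).

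Timp1, Timp3 and Timp4 lie inside genes of the synapsin family, which the tables list as separate rows. Timp1 (NCBI gene 21857, chrX:20447292-20451861, NCBIM37) lies within the row of Syn1, Timp3 (gene 21859) within that of Syn3 and Timp4 (gene 110595, chr6:115195634-115201867) within that of Syn2. Syn1 and Syn3 were low beside their TIMP, at 3.48 FPKM and 0.338 FPKM in WT. Syn2 was higher than Timp4, at 5.06 FPKM in WT against 8.06 FPKM in KO, and how reads were split between these overlapping rows was not tested. Summed, Timp4 and Syn2 were 7.41 FPKM in WT against 13.8 FPKM in KO, giving a ratio of 1.86.

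Mmp2, gelatinase A, which cuts denatured collagen and type IV collagen of basement membranes, had the lowest ratio of the MMPs at 1 FPKM or more. Mmp2 (gene 17390, chr8:95351227-95377316, plus strand, NCBIM37) was 137 FPKM in WT against 50.9 FPKM in KO, giving a ratio of 0.371 (0.348 to 0.394), on about 3667 and 1404 fragments. It stood at percentile 97.6 of the listed genes in WT and at percentile 91.0 in KO. The WT row, however, runs to position 95443178 and takes in the next gene, Lpcat2, an enzyme of phospholipid synthesis. The KO table lists Lpcat2 apart, at 11.98 FPKM, and the WT table has no row for it. With all rows of the locus summed, the levels were 138 FPKM in WT against 62.9 FPKM in KO, giving a ratio of 0.455, so the locus stayed below 2/3 either way. How much of the WT value came from Lpcat2 cannot be told from a merged row. The other gelatinase, Mmp9, was listed in WT alone, at 0.635 FPKM and about 18 fragments.

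**Figure D3:**
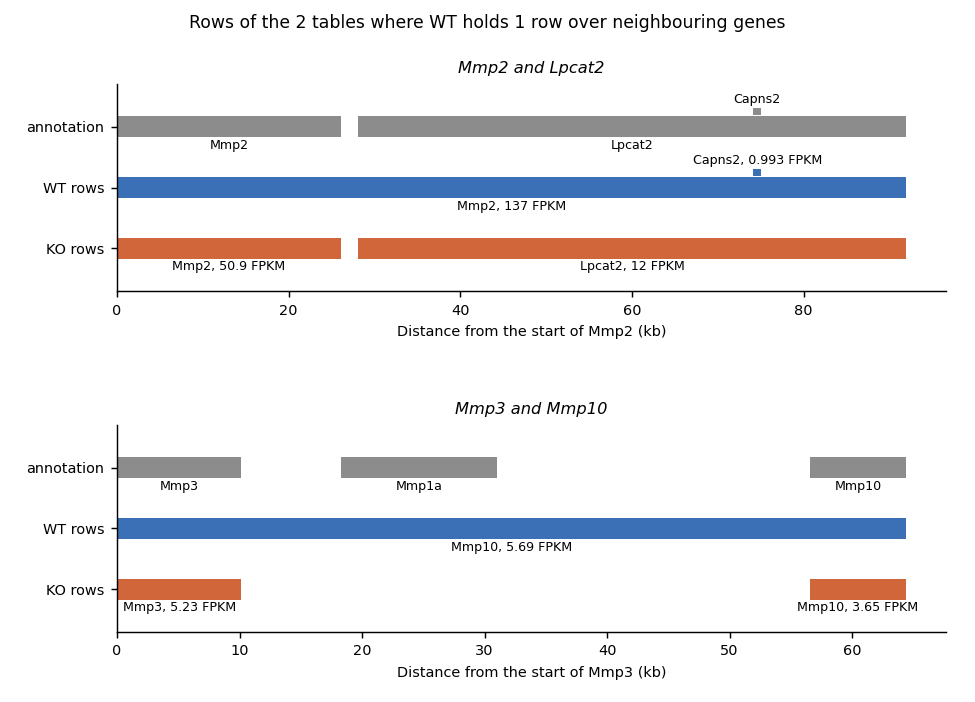
Extent of the rows that the WT and KO tables give at the Mmp2 locus and at the Mmp3 and Mmp10 locus, beside the annotated genes, as distance in kilobases from the first annotated start, with the FPKM of each row. The WT library has merged rows at both loci, at 137 FPKM and 5.69 FPKM, where the KO library has a row for each gene.

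Of the partners that open proMMP2 at the cell surface, Timp2 was lower in KO and Mmp14 was close to its WT level. Mmp14, the membrane-type MMP that activates it, was 133 FPKM in WT against 121 FPKM in KO, giving a ratio of 0.911 (0.866 to 0.960). The ratio of Timp2 over Mmp14 was 3.81 in WT and 2.77 in KO, and that of Timp2 over Mmp2 was 3.68 and 6.59. Among the other membrane-type MMPs, Mmp15 was 4.77 FPKM and 5.58 FPKM, Mmp16 12.7 FPKM and 14.5 FPKM, and Mmp17 9.10 FPKM and 11.6 FPKM, with ratios of 1.17, 1.14 and 1.27. None of the 4 membrane-type MMPs at 1 FPKM or more was past the limits. Mmp25, which lay under 1 FPKM, was 0.327 FPKM in WT against 0.0318 FPKM in KO, on about 10 fragments and 1.

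The stromelysins Mmp3 and Mmp10, which cut proteoglycans and activate other MMPs, cannot be compared gene by gene. Mmp3 (gene 17392, chr9:7445822-7455972) was listed in KO alone, at 5.23 FPKM and about 83 fragments. Mmp10 (gene 17384, chr9:7502352-7510238) was 5.69 FPKM in WT against 3.65 FPKM in KO, giving a ratio of 0.643 (0.448 to 0.915). The WT row named Mmp10, however, starts at 7445822, where Mmp3 starts, and so covers both genes. Summed over both, the level was 5.69 FPKM in WT against 8.88 FPKM in KO, giving a ratio of 1.56, which is past the other limit. The absence of Mmp3 from the WT table and the lower Mmp10 value in KO are therefore not separate measurements. Mmp11, stromelysin 3, which is cut open by furin-type convertases, was 11.1 FPKM and 9.59 FPKM.

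Mmp3 and Mmp10 belong to a cluster of MMP genes on chromosome 9 that also holds Mmp12 and Mmp13, and several of these genes have an AP-1 motif before their start. The promoters of 40 of the 64 genes, 44 in number, were found in RefSeq (GRCm38.p6), and the 250 bases before each start were searched. The AP-1 motif TGANTCA, which reads the same on both strands, was in 5 of the 44, against 6.75% of all 32851 promoters. TATAAA, searched on the strand of the gene, was in 5, against 7.59% of all. Both motifs occurred together in the promoters of Mmp3, Mmp10 and Mmp13 alone among the 44, and in 0.791% of all promoters. GGGCGG, searched on both strands, was in 24 of the 44 and in 32.7% of all, and in 0 of the 7 promoters of the cluster. A match is a run of letters and not a measured binding site. The 100 bases before the start are shown for the 4 cluster genes that hold the AP-1 motif, with the motifs in capitals, on the plus strand of GRCm38.p6 at chr9:7445722-7445821 for Mmp3, chr9:7502242-7502341 for Mmp10, chr9:7347274-7347373 for Mmp12 and chr9:7272414-7272513 for Mmp13.
Mmp3: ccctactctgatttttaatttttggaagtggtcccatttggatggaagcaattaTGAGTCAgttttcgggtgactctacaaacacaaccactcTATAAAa
Mmp10: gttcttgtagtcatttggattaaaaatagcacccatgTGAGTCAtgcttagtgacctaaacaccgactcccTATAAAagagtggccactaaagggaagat
Mmp12: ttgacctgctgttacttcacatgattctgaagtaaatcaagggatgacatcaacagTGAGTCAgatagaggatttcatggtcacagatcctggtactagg
Mmp13: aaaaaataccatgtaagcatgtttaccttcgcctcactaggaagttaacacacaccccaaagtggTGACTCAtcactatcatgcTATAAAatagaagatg

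The first base of the AP-1 motif lay 46 bases before the start in Mmp3, 63 in Mmp10, 44 in Mmp12 and 35 in Mmp13. Of these, Mmp3 and Mmp10 rest on the merged row described above. Mmp12, the macrophage metalloelastase, was 17.4 FPKM in both libraries, giving a ratio of 1.00 (0.899 to 1.11). Mmp13, collagenase 3, which cuts fibrillar collagen, was 1.71 FPKM in WT against 1.30 FPKM in KO, and its interval of 0.459 to 1.25 held a ratio of 1. Mmp8 and Mmp27, of the same cluster, were under 0.3 FPKM in both libraries.

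The remaining MMPs were within the limits. Mmp19 was 13.5 FPKM in WT against 11.4 FPKM in KO, Mmp23 was 13.1 FPKM and 11.995 FPKM, and Mmp28, epilysin, was 4.37 FPKM and 5.10 FPKM. The row of Mmp19 overlaps that of Tmem198b, at 16.7 FPKM and 16.9 FPKM. Over the 13 MMPs compared, 1 was above and 2 were below the limits (7.69% and 15.4%), against 9.56% and 8.28% of all genes. The merged rows just described hold all 3. The summed MMP level was 365 FPKM in WT against 269 FPKM in KO, giving a ratio of 0.738. Without Mmp2 the sums were 228 FPKM and 218 FPKM, giving a ratio of 0.960, so that Mmp2 made most of the difference in the sum. TIMPs over MMPs was 4.20 in WT and 4.82 in KO with Mmp2, and 6.73 and 5.94 without it, so the direction of this balance turned on Mmp2.

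**Figure D4:**
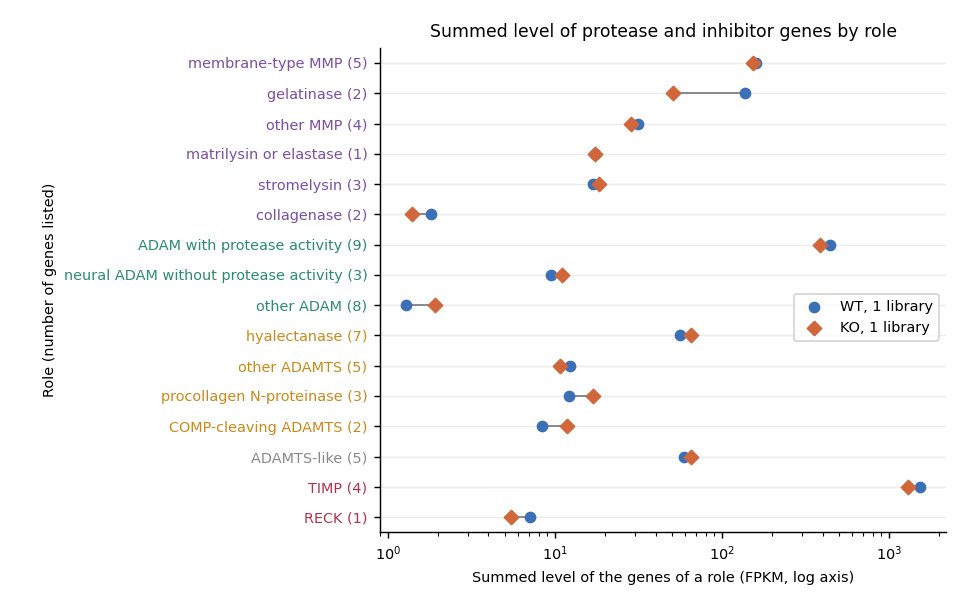
Summed level (FPKM, log axis) of the genes of each role in the WT and the β-arr1 KO library, with the number of listed genes in parentheses and a line joining both libraries. The gelatinases, at 138 FPKM in WT against 50.9 FPKM in KO, show the widest gap.

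The ADAMs with protease activity, which shed ligands and receptors from the cell surface, were all within the limits at 1 FPKM or more. Adam10, the main sheddase of Notch and of amyloid precursor protein, was 43.0 FPKM in WT against 46.9 FPKM in KO, giving a ratio of 1.09 (1.02 to 1.16). Adam17, the TNF-α converting enzyme, was 19.4 FPKM and 18.4 FPKM, giving a ratio of 0.944 (0.853 to 1.05), and its row overlaps that of Iah1. Adam8, known from macrophages and other leukocytes, was 134 FPKM and 94.1 FPKM, giving a ratio of 0.702 (0.670 to 0.735). Adam8 had the lowest ratio of the 9 ADAMs and lay just inside the lower limit. Beside it, the microglia and macrophage markers summed to 419 FPKM in WT against 334 FPKM in KO, with Csf1r at 146 FPKM and 135 FPKM and Cd68, the only one of 7 below 2/3, at 185 FPKM and 119 FPKM. Cx3cr1 was 24.8 FPKM and 25.9 FPKM, the median log2 ratio of the markers was -0.12, and their part in the Adam8 value was not tested.

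Adam9 and Adam15 were the other abundant ADAMs, at 128 FPKM and 91.6 FPKM in WT and 121 FPKM and 81.8 FPKM in KO. Adam12 and Adam19, the meltrins, were 9.63 FPKM and 16.9 FPKM in WT and 8.53 FPKM and 17.4 FPKM in KO. The ratios of the 7 ADAMs with protease activity at 1 FPKM or more ran from 0.702 to 1.09. Adam22, a receptor of the synaptic protein LGI1 without a zinc site, was 2.59 FPKM in WT against 3.95 FPKM in KO, giving a ratio of 1.53 (1.29 to 1.81). Its relative Adam23 was 6.42 FPKM and 6.34 FPKM, so the pair differed, and Adam22 lay just past the upper limit.

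In the ADAMTS family the counting interval left out 1 in 11 of the 12 genes at 1 FPKM or more, with 7 higher and 4 lower in KO, against 40.5% of all genes. These intervals cover the counting of fragments alone, so this count is not one of differences between genotypes. That of Adamts9, from 1.002 to 1.41, only just left out 1. The hyalectanases, which cut aggrecan, brevican and versican, diverged. Adamts1 (gene 11504) was the highest of them, at 34.8 FPKM in WT against 49.0 FPKM in KO, giving a ratio of 1.41 (1.32 to 1.51). Adamts5 (gene 23794), an aggrecanase whose gene lies beside Adamts1 on chromosome 16, was 9.54 FPKM and 6.25 FPKM, giving a ratio of 0.655 (0.582 to 0.737). Adamts4 (gene 240913), the other main aggrecanase, was 5.93 FPKM and 3.41 FPKM, giving a ratio of 0.575 (0.462 to 0.712). Adamts1 over Adamts5 was thus 3.65 in WT and 7.85 in KO, between neighbouring genes of like function. The low gene Adamts15 was 1.07 FPKM and 0.691 FPKM, giving a ratio of 0.644 (0.416 to 0.986) on about 58 and 38 fragments. Adamts8 was 1.12 FPKM in both libraries and Adamts9 was 3.36 FPKM and 3.996 FPKM, so that of 6 hyalectanases at 1 FPKM or more 3 were below the limits and none above, against 8.28% and 9.56% of all genes. Their summed level, led by Adamts1, was nonetheless higher in KO, at 64.9 FPKM against 56.1 FPKM, with Adamts20 included.

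Of the procollagen N-proteinases, which remove the amino propeptide of fibrillar procollagens, 1 was above the limits. Adamts14 was 6.41 FPKM in WT against 10.2 FPKM in KO, giving a ratio of 1.60 (1.38 to 1.85). Adamts2 was 5.37 FPKM and 6.34 FPKM, giving a ratio of 1.18 (1.02 to 1.36), and Adamts3 was under 0.4 FPKM in both. Of the genes of fibrillar procollagens, Col1a1 and Col1a2 of the fibroblast and mural list were below 2/3, and no others were read here. Col1a1 was 420 FPKM in WT against 237 FPKM in KO, giving a ratio of 0.564. Col1a2 was 92.3 FPKM and 34.3 FPKM, giving a ratio of 0.371. The proteases of cartilage oligomeric matrix protein were both within the limits, with Adamts12 at 5.18 FPKM and 7.72 FPKM, giving a ratio of 1.49 (1.28 to 1.73), and Adamts7 at 3.19 FPKM and 4.10 FPKM, giving a ratio of 1.28 (1.04 to 1.59). Adamts12 lay just inside the upper limit. Adamts6 was 2.43 FPKM and 3.80 FPKM, giving a ratio of 1.57 (1.22 to 2.02), while Adamts10, which binds fibrillin microfibrils, was 9.67 FPKM and 6.75 FPKM, giving a ratio of 0.698 (0.592 to 0.822). The summed ADAMTS level was 89.0 FPKM in WT against 104 FPKM in KO, and without Adamts1 it was 54.2 FPKM and 55.3 FPKM, so that Adamts1 made most of the difference.

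**Figure D5:**
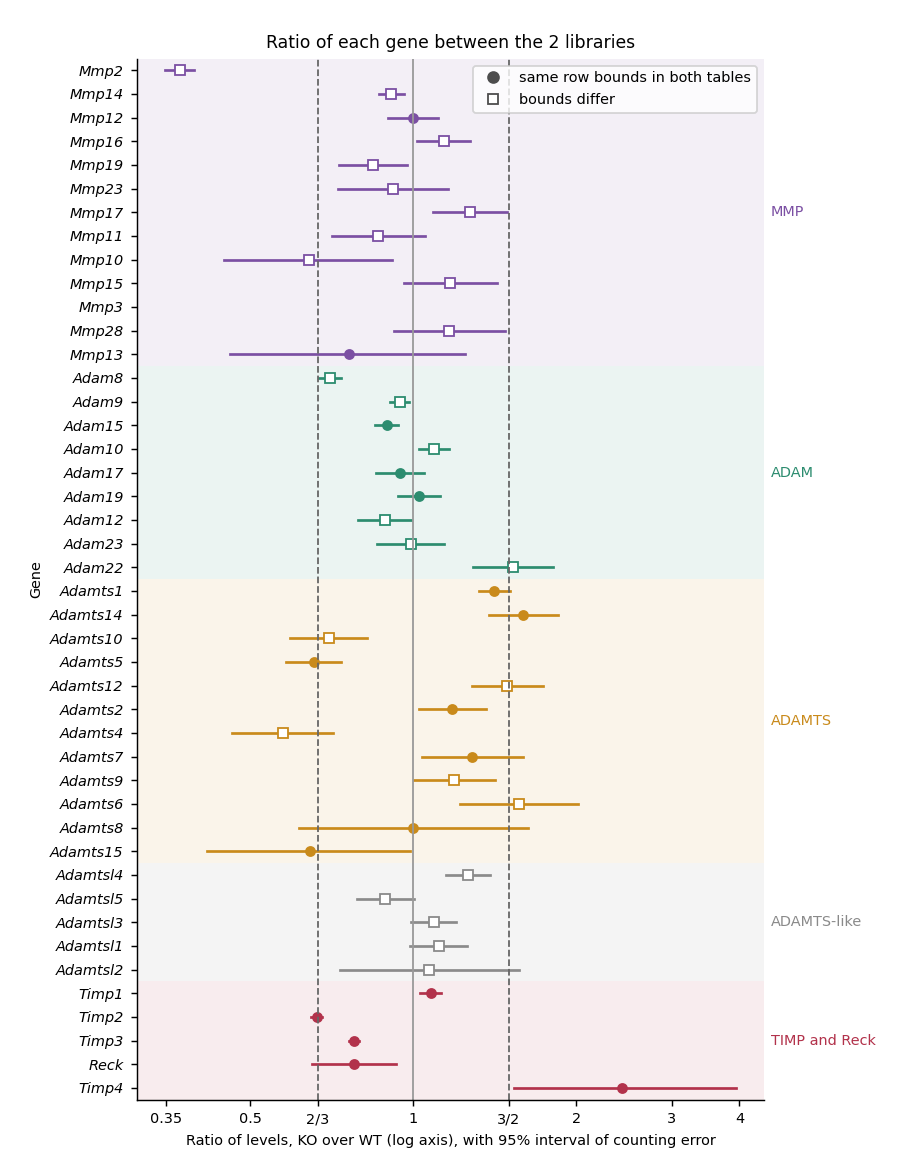
Ratio of β-arr1 KO vs. WT (log axis) of each gene at 1 FPKM or more that both tables list, with its 95% interval of counting error, grouped by family, and dashed lines at 3/2 and 2/3; filled circles have the same row bounds in both tables and open squares do not. Mmp2 lies at 0.371 and Timp4 at 2.43, and most other points lie between the limits; Mmp3 has no point because the WT table lists no value.

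The ADAMTS-like proteins carry the ancillary domains of ADAMTS proteases without a catalytic domain, and none of the 5 was past the limits. Adamtsl4, which binds fibrillin microfibrils, was 22.7 FPKM in WT against 28.7 FPKM in KO, giving a ratio of 1.26 (1.15 to 1.38). The others had intervals that held 1, with Adamtsl5 at 15.5 FPKM and 13.8 FPKM, Adamtsl3 at 12.2 FPKM and 13.4 FPKM, Adamtsl1 at 7.26 FPKM and 8.08 FPKM, and Adamtsl2 at 1.02 FPKM and 1.09 FPKM.

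The remaining 20 genes were under 1 FPKM in both libraries. They include the ADAMs known from the testis, and 5 of them were above and 5 below the limits, but the interval left out 1 in 1 of the 16 listed in both tables, Mmp25. The share of all genes under 1 FPKM that were past the limits was not computed, so these counts are not a result about the set. Listed in one table alone were Mmp9 and Adamts18 in WT, and Adam4 and Adam32 in KO, with Adamts18, Adam4 and Adam32 resting on about 3 fragments each. For these 3 genes a difference was not detectable at this depth.

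The enzymes and partners that switch these proteases on or off were read from a list of 26 genes, of which 21 were at 1 FPKM or more. Above the limits were 3, below 1 and within 17, against 9.56% above and 8.28% below among all genes. The median log2 ratio of the list was 0.07. The proprotein convertases, which cut the prodomains of ADAMs, ADAMTS proteases and membrane-type MMPs, went apart. Pcsk6 was 26.8 FPKM in WT against 56.1 FPKM in KO, giving a ratio of 2.10 (1.95 to 2.26). Pcsk5 was 4.28 FPKM and 1.07 FPKM, giving a ratio of 0.250 (0.186 to 0.333), the lowest of the list. Furin was 40.5 FPKM and 35.1 FPKM, so convertases of one family lay above, below and within the limits.

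Of the other activators, Tspan15, a tetraspanin that partners ADAM10, was 6.13 FPKM in WT against 9.62 FPKM in KO, giving a ratio of 1.57 (1.31 to 1.88). The other tetraspanins of the list that were compared lay within the limits. Tspan5 was lower in KO, at 21.005 FPKM and 16.488 FPKM, giving a ratio of 0.785 (0.694 to 0.887). Tspan14, Tspan17 and Tspan33 had ratios of 1.14, 1.05 and 1.39. Rhbdf2, which ADAM17 needs for its maturation, was 6.83 FPKM and 5.09 FPKM, within the limits. Rhbdf1, of the same list, was 20.3 FPKM and 21.6 FPKM, giving a ratio of 1.07. The plasminogen activators Plat and Plau were 68.9 FPKM and 61.1 FPKM in WT and 60.6 FPKM and 62.0 FPKM in KO. Both activators were within the limits. Tfpi2, an inhibitor of plasmin and other serine proteases in the matrix, was 3.53 FPKM and 6.16 FPKM, giving a ratio of 1.75 (1.20 to 2.58).

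Markers of several cell types differed between the WT and KO libraries. All 4 fibroblast and mural markers at 1 FPKM or more were below 2/3, from Rgs5 at 5.83 FPKM in WT against 3.58 FPKM in KO to Dcn at 6.11 FPKM and 0.831 FPKM, giving a ratio of 0.136. Lum was listed in WT alone, at 0.660 FPKM. Mmp2, Timp2 and Adamts5 were lower in KO as well, whereas Adamts14, Adamts12 and Adamts2 were higher. Of the 43 genes of the set compared and listed in both libraries, 23 were lower and 20 higher in KO. Among all genes so compared, 5711 were lower and 6459 higher. The part of fibroblast and mural cells in the values of the set was not tested. In a bulk culture, fewer cells of a type and less RNA per cell cannot be told apart. Of the 8 astrocyte markers, 3 were above 3/2, with S100b at 29.3 FPKM and 51.7 FPKM, and none was below 2/3. Skeletal muscle markers summed to 35.9 FPKM in WT against 75.8 FPKM in KO, oligodendrocyte markers to 52.9 FPKM and 70.7 FPKM, and endothelial markers to 41.0 FPKM and 29.4 FPKM. The endothelial sum followed Cdh5, at 31.8 FPKM and 16.1 FPKM, whereas Pecam1 was above 3/2, at 3.03 FPKM and 5.22 FPKM, and the median log2 ratio of the list was 0.48. Myod1 and Mog, defining markers of muscle and oligodendrocytes, were not listed in WT. In KO they were 0.968 FPKM and 0.0662 FPKM, both under 1 FPKM. Tubb3 was the only neuron marker at 1 FPKM or more.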

How the data were processed

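RNA was extracted with Trizol from cultured WT and β-arr1 KO DG astrocytes for 1 library of each, and the genotypes were taken from the labels. The authors aligned paired reads to mm9 with TopHat (1.4.0 per the submitters' processing notes), ran Cufflinks (version not given in the sources used here) and deposited 1 FPKM value per gene and library, above 0 only and without counts. Tables were joined by symbol, keeping the highest row, and a gene missing from one table was given 0. Genes at 1 FPKM or more in at least one library were compared by the ratio without a pseudocount. Medians used log2 after adding 0.1 FPKM. Every gene of the set at 1 FPKM or more was named, and of the partner list those past a limit. Members and lists were chosen with earlier results of these data known.

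Depth came from genes under 0.15 FPKM, 71.5% (WT) and 72.0% (KO) of which lay within 5% of 1 to 3 whole fragments. Fragments per gene and 95% Clopper-Pearson intervals used the longest annotated transcript, with the same length for both libraries, and cover counting error only. The computation was tested on simulated data. Of the 44 genes, 17 had the same row bounds in both tables. Starts were printed after adding 1, the setting in which 38.5% and 38.8% equalled the annotation (3.04% and 3.10% as written). Protein sequences were not used here. Computation used scipy 1.17.1, pandas 2.3.3 and numpy 2.4.6 under Python 3.11.15, and plots matplotlib 3.10.9. Alternatives were other minimums, added values, scalings, limits and ways to treat overlapping rows.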

Additional observations from a re-analysis of the deposited data

How the results depend on the processing

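Against 5 genes higher and 6 lower in β-arr1 KO, there were 3 and 3 with 1 FPKM added (6.93% and 6.10% of all genes), 10 and 10 at a minimum of 0.1 FPKM (13.6% and 12.4%), 10 and 11 with no minimum (15.4% and 14.2%), 3 and 5 at a minimum of 5 FPKM (6.81% and 5.74%), and 2 and 1 with limits of 2 and 1/2 (4.78% and 4.42%). Among the 17 genes whose rows had equal bounds in WT and KO, there were 2 and 3 (7.51% and 6.32% of all such genes). Adding 1 FPKM brought Adam22 (1.38), Adamts6 (1.401), Adamts15 (0.816), Adamts5 (0.688) and Mmp10 (0.696) within the limits. The counts stayed at 5 and 6 under 3 scalings (9.21% to 9.68% and 8.23% to 8.58% of all genes). They were also 5 and 6 with rows of a symbol summed (9.58% and 8.27%). They were 5 and 5 with 0.1 FPKM added (9.29% and 8.07%) or overlapping rows summed (8.01% and 6.55%). They were 4 and 5 with 1 FPKM required in both libraries (6.45% and 5.35%). With overlapping rows summed, Mmp10 with Mmp3 changed sides, to 1.56. The scalings, which shifted all log2 ratios by less than 0.02, changed no call. No paired analysis was possible because each genotype has 1 library. For the same reason no library could be left out. Values of low genes rest on few fragments, and the transcript models of merged rows are not covered by any interval.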

Other observations

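The deposited tables annotate genes with molecular functions, and metalloendopeptidase activity is given to 48 genes of the set and to 34 genes outside it. This annotation differs from the zinc-site search. It is given to Adam22 and Adamtsl4, which had no site, and not to Adamts14 and Mmp27, which had one. Of those outside, 28 were at 1 FPKM or more, with 2 above and 1 below the limits, against 9.56% and 8.28% of all genes. Mme, neprilysin, which breaks down neuropeptides and amyloid β, was 6.08 FPKM in WT against 11.7 FPKM in KO, giving a ratio of 1.92 (95% interval of counting error 1.64 to 2.26). Ecel1, a relative of the endothelin-converting enzymes, was 0.792 FPKM and 1.61 FPKM. Pappa2, which cuts insulin-like growth factor binding proteins, was the only one below 2/3, at 1.53 FPKM and 0.206 FPKM, giving a ratio of 0.135 (0.0761 to 0.225). The other 25 were within the limits, among them Bmp1, the procollagen C-proteinase, at 83.7 FPKM and 56.9 FPKM, giving a ratio of 0.680 (0.641 to 0.721), close to the lower limit.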
